A study of Homo sapiens with 12 samples.

Results

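The cadherins and protocadherins examined here are the 134 probe sets, of 54613 non-control probe sets on the array, whose annotated symbol is CDH followed by a number or begins with PCDH. A single symbol was carried by 120 of them, which stand for 68 of the 19775 genes named on the array, and the other 14 carry several symbols at a time. Antisense and divergent transcripts were not taken, and 2 probe sets shared between PCDH20 and a non-coding gene were left out. RNA was measured in HD-MB03, a human cell line derived from a medulloblastoma of Group 3 with an amplified MYC gene. The cells were treated with 1 µM entinostat, an inhibitor of class I histone deacetylases that the labels also call MS275, or with the solvent DMSO alone, for 24 h or 48 h. Each of the 4 groups has 3 biological replicates, and every replicate was measured on a separate Affymetrix U133 Plus 2.0 array. HD-MB03 is 1 cell line in culture, so the replicates measure the spread between cultures and not between tumors.

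Cadherins are calcium-dependent adhesion molecules of the cell surface. The classical cadherins of types I and II hold neighboring cells together and are linked to actin through catenins, while protocadherins lack the catenin-binding tail and act in recognition between neurons, the delta group in part through the WAVE regulator of actin. The alpha, beta and gamma protocadherins lie in tandem clusters on chromosome 5, each first exon or single-exon gene with its own promoter, and individual neurons express different sets of them.

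Array medians lay between 80.64 and 81.84 intensity units, and the lowest value on any array was 36.66. The deposited values thus keep a background level, and fold changes, taken here on the log2 scale of these values, understate the change of dim probe sets. Of the members, 94 of 134 had a mean log2 value below 6.35, the median of all probe sets. For GAPDH, the 3' minus the 5' probe set on the log2 scale, a measure of RNA degradation, stayed between -0.18 and -0.03 on the 12 arrays. Of 8 markers of Group 3 medulloblastoma, 1 was higher and 4 were lower under entinostat over both times (21% and 19.7% of all genes). The log2 fold changes of GABRA5 were -1.78 at 24 h and -2.12 at 48 h, and those of IMPG2 -2.02 and -1.52. MYC, the 1 that was higher, had 0.04 and 0.17. The summed intensity of the 8 markers was 21680 to 24590 in DMSO and 18480 to 19830 in entinostat at 24 h, and 24380 to 26000 against 22270 to 22800 at 48 h. MYC and OTX2 made up most of these sums. EYS and NPR3 of that list were below the array medians in the mean of every group. None of 7 fibroblast genes passed the test over both times with limma (1 at an unadjusted p under 0.05), and their sums overlapped between the treatments at 24 h and at 48 h. In both treatments, 5 of these 7 genes at 24 h and 6 at 48 h had group means under 100 intensity units, where changes are understated. In bulk RNA, a change in the share of cells that express a gene and a change in RNA per cell cannot be told apart.

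Adhesion genes of these families moved in both directions under entinostat. Probe sets of CDH2 and of the delta protocadherins PCDH17, PCDH9 and PCDH10 rose, and probe sets of CDH15 and of many beta-cluster protocadherins fell. Entinostat against DMSO at 24 h gave 33 member probe sets with an adjusted p under 0.05 (18 higher, 15 lower), or 24.6% of them, where 25.2% of all probe sets passed, 12.8% higher and 12.4% lower. At 48 h it was 34 (19 higher, 15 lower) or 25.4%, against 26.1% of all, 12.9% higher and 13.2% lower. The additive model over both times called 49 (27 higher, 22 lower) or 36.6%, against 32.7% of all, 15.7% higher and 17% lower. The members as a whole therefore passed about as often as all probe sets did, and the calls of the single families follow by direction. By gene, each read from its probe set of the highest mean, 23 of 68 passed at 24 h (10 higher, 13 lower; 33.2% of all genes, 18.2% higher and 15% lower) and 21 at 48 h (10 higher, 11 lower; 34% of all genes, 17.3% higher and 16.6% lower). Over both times 29 genes passed (13 higher, 16 lower; 40.7% of all genes, 21% higher and 19.7% lower). The median log2 fold change of the member probe sets was -0.01 at both times, beside -0.03 at 24 h and -0.02 at 48 h over all probe sets. Between 24 h and 48 h in DMSO alone, 0 member probe sets passed with limma, 6 had an unadjusted p under 0.05, and 0.359% of all probe sets passed.

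**Figure D1:**
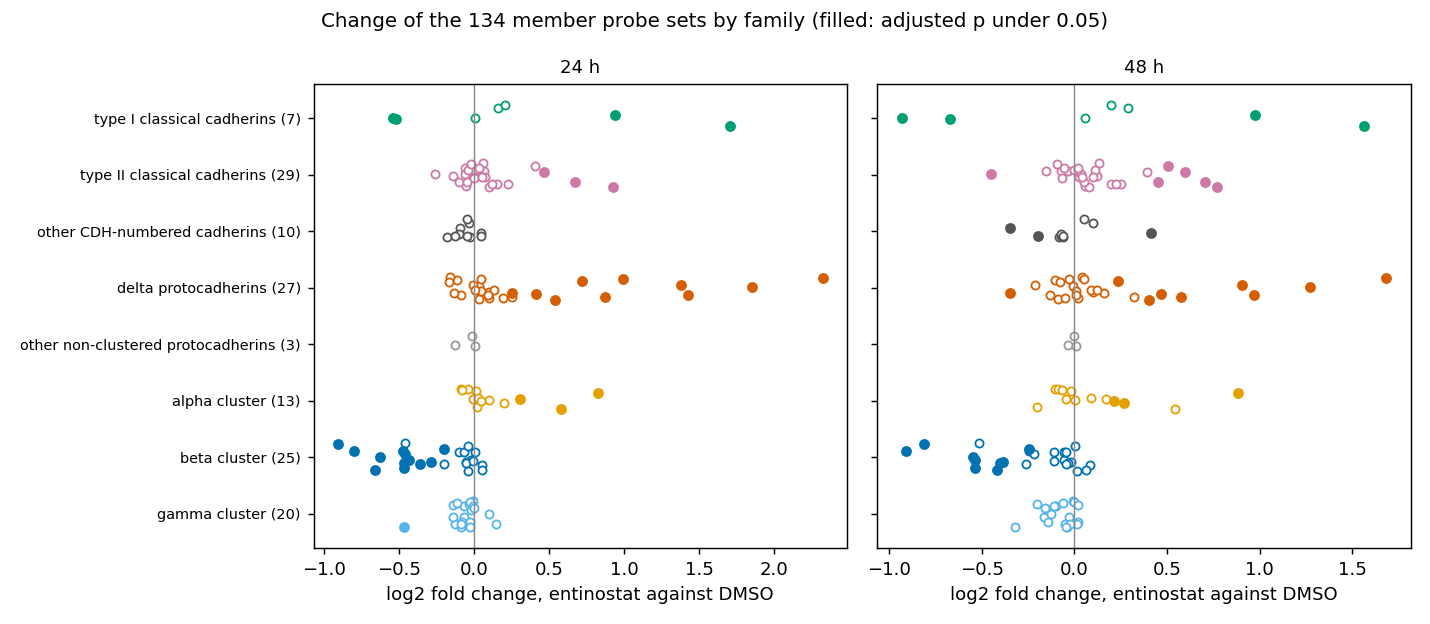
Log2 fold change of entinostat against DMSO (x axis) for each of the 134 member probe sets, in rows by family with the number of probe sets in brackets, at 24 h (left) and 48 h (right); filled points had a limma adjusted p under 0.05. The beta cluster has filled points only below 0 and the delta protocadherins have 10 above 0 and none below at 24 h.

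Among the type I classical cadherins, CDH2 (N-cadherin), the adhesion molecule of neural and mesenchymal cells, rose and CDH15 (M-cadherin), described in muscle and in the cerebellum, fell. A start region of CDH2 is shown because CDH2 had the largest rise among the classical cadherins. Another start of CDH2 (chr18:28036592-28036891) is not printed. Its region has 40.7% GC against 67% for the printed one, and holds CCAAT and TATAAA but no GGGCGG. The printed region runs from 250 bases before to 50 after a transcription start, 5′ to 3′ on the strand of the gene, from RefSeq. Letters are in capitals where GGGCGG (a GC box) or CCAAT, or the reverse complement of one, was found.
CDH2 (GRCh38.p14, chr18:28177081-28177380, - strand): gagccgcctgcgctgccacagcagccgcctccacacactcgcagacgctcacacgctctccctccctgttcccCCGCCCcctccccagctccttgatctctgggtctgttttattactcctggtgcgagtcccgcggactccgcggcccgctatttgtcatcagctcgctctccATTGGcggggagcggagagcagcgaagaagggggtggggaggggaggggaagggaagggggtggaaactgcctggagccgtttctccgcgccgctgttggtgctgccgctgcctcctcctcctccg

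The intensity of CDH2 (probe set 203440_at) was 129.9, 110.1 and 90.32 on the DMSO arrays at 24 h and 409.3, 388.4 and 281.6 on the entinostat arrays. At 48 h it was 106.4, 131.3 and 119.1 in DMSO and 341.7, 346.1 and 363.5 in entinostat. Every entinostat array was above every DMSO array, and the rise was similar at both times. The log2 fold change was 1.71 at 24 h (standard error 0.15, adjusted p = 2.94e-06 from limma) and 1.56 at 48 h (standard error 0.15, adjusted p = 5.37e-06). The other CDH2 probe set, 203441_s_at, rose by 0.94 and 0.97 on the log2 scale, also with no overlap.

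CDH15 (206327_s_at) had intensities of 318.3, 315.6 and 334.4 in DMSO and 195.7, 227.9 and 242.9 in entinostat at 24 h. At 48 h they were 291.4, 339.8 and 305.2 in DMSO and 161.4, 166.4 and 162.3 in entinostat. The entinostat arrays lay below all DMSO arrays at both times. The log2 fold changes were -0.54 (standard error 0.08, adjusted p = 0.000219) and -0.93 (standard error 0.08, adjusted p = 2.35e-06), and the interaction of treatment and time had an adjusted p of 0.133. The second CDH15 probe set gave -0.52 and -0.67, both past the threshold.

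CDH1 (E-cadherin), the main cadherin of epithelia, was dim in every group. Its probe set 201130_s_at had means of 54.69 ± 2.09 in DMSO and 54.93 ± 4.94 in entinostat at 24 h, and 52.24 ± 2.46 and 54.48 ± 4.23 at 48 h (SD, n = 3 arrays each), with overlapping arrays and log2 fold changes of 0.00 and 0.06 (standard error 0.08 each). The second, 201131_s_at, had 0.16 and 0.29, not past the threshold at either time and past it over both times (0.23, adjusted p = 0.0469). Of 7 transcription factors known to repress CDH1, 2 were higher and 5 lower over both times: TCF3 had -0.63 at 24 h and -0.55 at 48 h, TCF4 -0.73 and -0.79, SNAI2 -0.45 and -0.91, and TWIST1 0.77 and 0.76. Over the whole list the median was -0.41, beside -0.02 for all genes, of which 21% passed higher and 19.7% lower. Epithelial markers moved with the treatment too, 4 of 7 higher over both times, with a summed intensity of 509.9 to 523.5 in DMSO against 561.6 to 583.5 in entinostat at 24 h and 504.6 to 543.9 against 615.3 to 730 at 48 h. In DMSO the means of all 7 of these markers were under 100 intensity units, and their part in the values of CDH1 was not tested. CDH3 (P-cadherin) had a log2 fold change of 0.20 at both times and did not pass at either, but passed in the additive model (0.20, adjusted p = 0.0442).

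**Figure D2:**
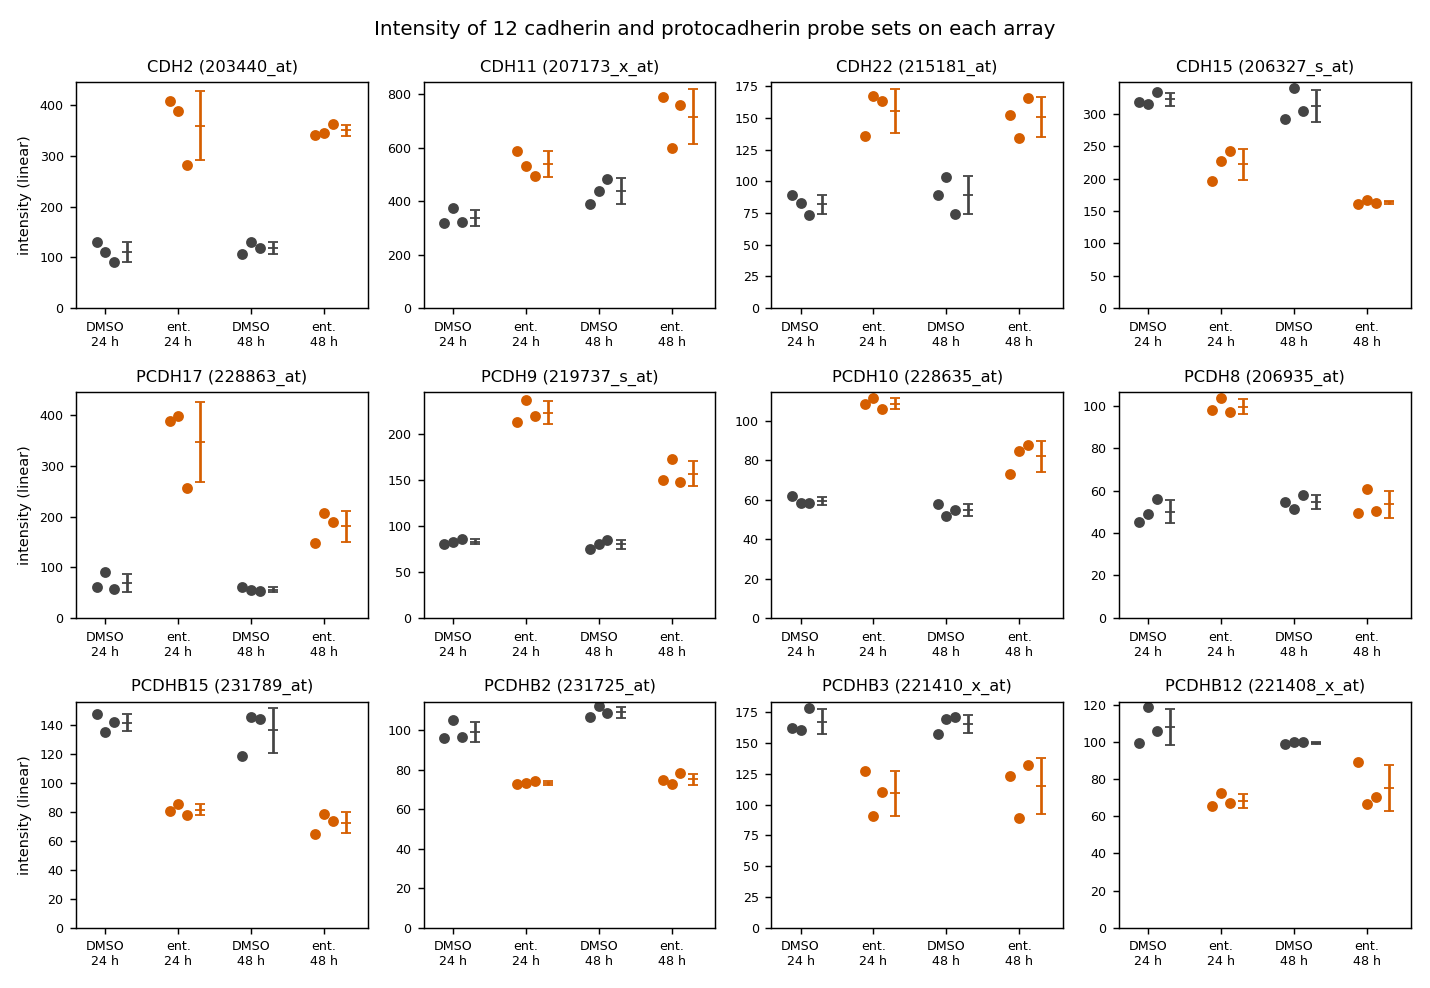
Intensity on a linear scale (y axis, from 0) of 12 probe sets on each of the 12 arrays, in DMSO (grey) and entinostat (orange) at 24 h and 48 h; points are single arrays, and the bars are the mean and SD of 3 arrays. CDH2, CDH11, CDH22, PCDH17, PCDH9 and PCDH10 lie higher in entinostat at both times, CDH15 and the beta-cluster genes lie lower, and PCDH8 is higher at 24 h only.

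Of the 29 probe sets of type II cadherins, 3 rose and 0 fell at 24 h (5 higher and 0 lower at an unadjusted p under 0.05 in limma), and 5 rose and 1 fell at 48 h. Of all probe sets, 12.8% rose and 12.4% fell at 24 h, and 12.9% rose and 13.2% fell at 48 h. Most of the type II family, 26 of 29 probe sets at 24 h and 23 at 48 h, did not pass. CDH11, a cadherin of mesenchymal cells and osteoblasts, read 319.0, 373.3 and 323.7 in DMSO and 589.6, 531.7 and 495.6 in entinostat at 24 h with probe set 207173_x_at. At 48 h it read 391.0, 438.4 and 484.8 in DMSO and 789.7, 598.5 and 760.2 in entinostat. All entinostat arrays were above the DMSO arrays of their time, with log2 fold changes of 0.67 (standard error 0.11, adjusted p = 0.000741) and 0.70 (standard error 0.11, adjusted p = 0.000476). The 4 probe sets of CDH11 disagreed in size and, at 48 h, in direction. That ending in _x_at, a suffix for probes that may bind other transcripts, gave the largest values, and 207172_s_at gave 0.40 and 0.50 and passed at 48 h only. Neither 236179_at, with 0.03 and 0.39, nor 239286_at, with 0.06 and -0.15, passed at either time.

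CDH22, a type II cadherin of the brain, was measured at 88.84, 83.11 and 73.72 in DMSO and at 135.6, 167.5 and 163.6 in entinostat at 24 h (215181_at). At 48 h its arrays read 89.39, 103.6 and 74.04 in DMSO and 152.4, 134.4 and 165.8 in entinostat. The rise was similar at both times, 0.92 (standard error 0.13, adjusted p = 0.000137) and 0.77 (standard error 0.13, adjusted p = 0.000521), and a second probe set of CDH22 had 0.04 at each. CDH18, another type II cadherin of the nervous system, rose by a smaller amount. It read 72.35, 65.71 and 70.25 in DMSO and 95.34, 95.94 and 96.09 in entinostat at 24 h, and 59.6, 71.69 and 61.5 against 82.7, 109.2 and 100.6 at 48 h. The treatments did not overlap at either time, and the log2 fold changes were 0.47 and 0.60. On 1 of 2 probe sets CDH24 passed at 48 h alone with 0.45 (adjusted p = 0.0386), while its value at 24 h was -0.10. CDH19, known from the Schwann cell lineage, was the family's only probe set to fall at 48 h, with -0.45 (adjusted p = 0.0461), and its DMSO and entinostat arrays overlapped. The other 2 probe sets of CDH19 had -0.07 and -0.03 at 48 h, and the second of CDH24 had 0.03. In the astrocyte and glial marker list, 2 of 5 genes, SLC1A3 and MBP, were lower over both times (19.7% of all genes), and the summed intensity was 649.7 to 688.9 in DMSO and 428.5 to 466.1 in entinostat at 48 h. Most of that difference was SLC1A3, with a mean of 337 in DMSO and 149.6 in entinostat. The other 3, GFAP, AQP4 and S100B, had means under 100 intensity units in every group. The part of these markers in the value of CDH19 was not tested.

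The other cadherins with a CDH number gave 0 of 10 probe sets past the threshold at 24 h in limma (1 lower at an unadjusted p under 0.05). At 48 h CDH23, a component of the tip link of hair cells, rose by 0.41 on 1 of 4 probe sets (1552436_a_at, adjusted p = 0.0049), while the other 3 had -0.08, -0.07 and 0.055 and did not pass. Of the 4 probe sets of CDH26, 2 fell at 48 h, by 0.35 and 0.20, and the rest had -0.06 and -0.07. Probe sets of the kidney cadherin CDH16 and the intestinal cadherin CDH17 did not pass at either time. The 3 probe sets of PCDH12, an endothelial protocadherin, and PCDH15, the partner of CDH23 in the tip link, lay between -0.13 and 0.01 at 24 h and between -0.03 and 0.01 at 48 h, and 0 passed in limma (1 at 24 h and 0 at 48 h had an unadjusted p under 0.05).

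The delta protocadherins are expressed in overlapping patterns in the developing brain. Of their 27 probe sets, 10 were higher and 0 lower at 24 h (11 and 1 at an unadjusted p under 0.05 in limma), and 8 were higher and 1 lower at 48 h. In the additive model 12 were higher and 2 lower. Of all probe sets, 12.8% were higher and 12.4% lower at 24 h, and 12.9% and 13.2% at 48 h. By gene, 5 of 9 delta protocadherins were higher and 0 lower at 24 h (18.2% and 15% of all genes), and 4 were higher and 1 lower at 48 h (17.3% and 16.6%). The median log2 fold change of the delta probe sets was 0.10 at 24 h and 0.06 at 48 h, and 17 of the 27 probe sets at 24 h and 18 at 48 h did not pass.

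The start regions of PCDH17 and PCDH9 are shown because these genes had the largest rises among all protocadherins. Both run over the same window and are from RefSeq as for CDH2, with the same letters in capitals.
PCDH17 (GRCh38.p14, chr13:57631494-57631793, + strand): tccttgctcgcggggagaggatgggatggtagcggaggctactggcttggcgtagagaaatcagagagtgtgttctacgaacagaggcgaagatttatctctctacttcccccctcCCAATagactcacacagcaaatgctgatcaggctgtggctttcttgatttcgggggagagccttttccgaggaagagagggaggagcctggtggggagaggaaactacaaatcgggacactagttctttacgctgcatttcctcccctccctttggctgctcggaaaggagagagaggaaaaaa
PCDH9 (GRCh38.p14, chr13:67230287-67230586, - strand): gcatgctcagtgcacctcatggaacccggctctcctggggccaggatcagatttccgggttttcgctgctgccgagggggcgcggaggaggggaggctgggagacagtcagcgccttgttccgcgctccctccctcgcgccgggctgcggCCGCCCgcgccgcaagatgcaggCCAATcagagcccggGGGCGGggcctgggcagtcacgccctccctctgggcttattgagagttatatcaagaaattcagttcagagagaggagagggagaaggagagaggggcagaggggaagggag

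PCDH17, a protocadherin of synapses in cortico-basal ganglia circuits, had the largest change of any member. The arrays of 228863_at read 61.24, 90.12 and 57.15 in DMSO and 388.3, 397.7 and 256.3 in entinostat at 24 h. At 48 h they read 60.86, 54.29 and 52.47 in DMSO and 147.0, 206.8 and 189.0 in entinostat. No array of one treatment reached those of the other. The log2 fold change was 2.32 at 24 h (standard error 0.20, adjusted p = 2.42e-06) and 1.68 at 48 h (standard error 0.20, adjusted p = 3.24e-05). The remaining 2 probe sets of PCDH17 rose by 1.85 and 1.38 at 24 h and by 1.27 and 0.90 at 48 h.

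PCDH9, a protocadherin of cortical neurons, gave 80.62, 82.11 and 85.6 in DMSO and 213.1, 237.0 and 218.8 in entinostat at 24 h (219737_s_at). Its values at 48 h were 74.74, 80.69 and 84.48 in DMSO and 149.8, 172.1 and 148.0 in entinostat. Replicates of this probe set lay close together in every group and far apart between treatments. The log2 fold changes were 1.43 (standard error 0.07, adjusted p = 4.24e-08) and 0.97 (standard error 0.07, adjusted p = 7.45e-07), and the interaction had an adjusted p of 0.0521. Of the other 3 probe sets of PCDH9, 238919_at rose by 0.54 and 0.40, while 1565602_at (0.09 and 0.01) and 219738_s_at (0.01 and 0.12) did not pass. PCDH10, whose tail is known to bind the WAVE complex, read 62.0, 58.16 and 58.57 in DMSO and 108.7, 111.7 and 106.0 in entinostat at 24 h (228635_at), and 57.85, 51.77 and 54.88 against 73.35, 84.96 and 87.83 at 48 h. It rose without overlap, by 0.87 (standard error 0.07, adjusted p = 1.82e-06) and 0.58 (standard error 0.07, adjusted p = 4.77e-05). Its other 3 probe sets had 0.10 to 0.25 at 24 h, where 1 passed, and 0.10 to 0.32 at 48 h, where none passed. Of PCDH1, a protocadherin known from airway epithelium, 1 probe set rose by 0.41 at 24 h and 0.47 at 48 h (203918_at), and the other, 215277_at, had -0.11 at both times and did not pass. PCDH18 fell at 48 h by 0.35 on 225975_at (adjusted p = 0.0119), while the value of -0.14 at 24 h and those of its second probe set, -0.17 and -0.08, did not pass. PCDH19, known from an inherited epilepsy, had 0.10 and 0.02, and neither it nor the 5 probe sets of PCDH11X, of which 4 also carry the symbol of its Y-linked copy, passed at either time. The 2 delta probe sets that were lower in the additive model were 225975_at of PCDH18, with -0.24 (adjusted p = 0.0137), and 1 of these 5. PCDH8, PCDH17 and PCDH9 lie on chromosome 13, and each had a probe set that rose at 24 h. So did PCDH10 and PCDH7 on chromosome 4 and PCDH1 on chromosome 5, while PCDH18 on chromosome 4 and PCDH11X and PCDH19 on the X chromosome did not.

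Of 7 measured genes of the WAVE complex, 4 rose and 1 fell at 24 h, and 4 rose and 0 fell at 48 h (5 genes had an unadjusted p under 0.05 in limma). Of all genes, 18.2% rose and 15% fell at 24 h, and 17.3% rose and 16.6% fell at 48 h. CYFIP1, a WAVE subunit, rose by 1.63 and 1.97, and its paralog CYFIP2 by 1.51 and 0.92. WASF3 had 0.26 and 0.53, and the small subunit BRK1 0.27 and 0.45. Among 14 genes of catenins and other partners in adherens junctions, 5 rose and 3 fell over both times (21% and 19.7% of all genes), with a median of -0.03. Vinculin (VCL), which links catenins to actin, rose by 0.56 and 0.74, plakoglobin (JUP) by 0.63 and 0.32, and NECTIN1 fell by 0.25 and 0.44. Beta-catenin (CTNNB1) had 0.21 and 0.14, values that did not pass at either time, and rose by 0.17 in the additive model (adjusted p = 0.0177).

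A probe set of PCDH8 and one of PCDH7 had a response that differed between the times, 2 of 134 probe sets by the interaction of treatment and time, where 1.21% of all probe sets passed, 0.646% with a lower value at 48 h. PCDH8, an activity-regulated protocadherin, read 45.36, 48.73 and 56.25 in DMSO and 98.13, 103.4 and 96.88 in entinostat at 24 h. At 48 h the readings were 54.46, 51.11 and 57.92 in DMSO and 49.35, 60.93 and 50.55 in entinostat. The groups were well separated at 24 h and overlapped at 48 h. The log2 fold change went from 0.99 (standard error 0.09, adjusted p = 6.02e-06) to -0.03 (standard error 0.09, adjusted p = 0.881), and the interaction was -1.02 (standard error 0.13, adjusted p = 0.00514). This call held whichever of the 12 arrays was omitted (adjusted p from 0.00327 to 0.0286).

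PCDH7, which is expressed in brain and heart, had intensities of 52.22, 53.19 and 51.07 in DMSO and 89.07, 82.42 and 86.61 in entinostat at 24 h (205534_at). At 48 h it had 49.72, 57.89 and 54.72 in DMSO and 60.48, 67.93 and 62.64 in entinostat. The treatments did not overlap on this probe set at either time, and the gap was smaller at 48 h. The probe set rose by 0.72 at 24 h (standard error 0.07, adjusted p = 4.71e-06) and by 0.24 at 48 h (standard error 0.07, adjusted p = 0.0176). The interaction of -0.49 (adjusted p = 0.0301) lost its call when 1 array was omitted in 10 of 12 cases (adjusted p from 0.0262 to 0.0767), and held only without DMSO replicate 1 or without entinostat replicate 2 of 48 h. Without either of those arrays the call at 48 h itself was lost, with 0.18 (adjusted p = 0.0787) and 0.19 (adjusted p = 0.076). The other 4 of the 5 probe sets of PCDH7 did not pass at either time or in the interaction. Of these, 210273_at, which has the highest mean and stands for the gene in counts by gene, had -0.01 and -0.21, 205535_s_at had 0.13 and 0.09, and the remaining pair lay between 0.01 and 0.06. The plot of the changes at 24 h against those at 48 h shows these probe sets of PCDH8 and PCDH7 below the diagonal, together with PCDH17 and PCDH9, whose interactions did not pass.

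**Figure D3:**
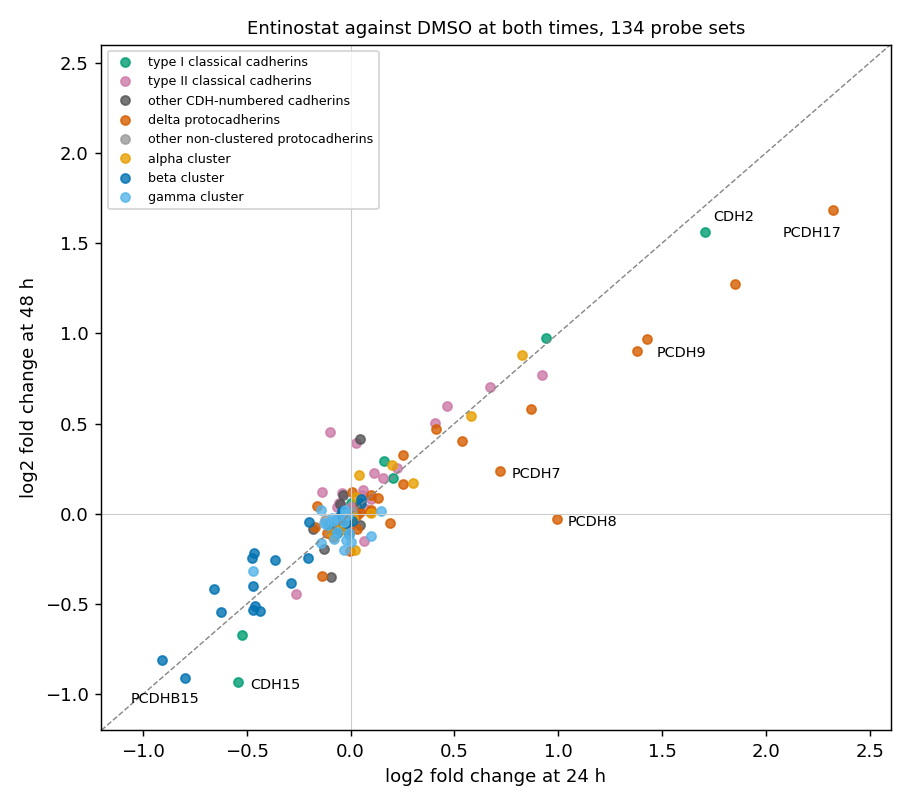
Log2 fold change of entinostat against DMSO at 24 h (x axis) and at 48 h (y axis) for the 134 member probe sets, colored by family; the dashed line marks equal change at both times. PCDH8 lies on the horizontal line of no change at 48 h, and CDH2, CDH15 and PCDHB15 keep their direction at both times.

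In the beta cluster, every probe set that passed at 24 h or 48 h was lower under entinostat. Of 25 probe sets, 12 were lower and 0 higher at 24 h (14 and 0 at an unadjusted p under 0.05 in limma), and 9 were lower and 0 higher at 48 h (13 and 0), so that 13 and 16 did not pass. The median log2 fold change was -0.20 at 24 h and -0.22 at 48 h, beside -0.03 and -0.02 over all probe sets, of which 12.4% and 13.2% were lower. By gene, 11 of 17 fell at 24 h and 8 at 48 h, and 12 did so in the additive model, beside 15%, 16.6% and 19.7% of all genes. In that model the values of all 17 were below 0. These counts read PCDHB3, PCDHB6, PCDHB11, PCDHB12, PCDHB13 and PCDHB18P from probe sets ending in _x_at. On their probe sets without that ending, PCDHB3, PCDHB6, PCDHB13 and PCDHB18P did not pass, and PCDHB3 and PCDHB6 had 0.07 and 0.06 in the additive model. Beta genes are alike in sequence, and 7 of the 24 single-symbol probe sets end in _x_at, _s_at or _a_at, the suffixes of probe sets that may bind more than 1 transcript. All 7 of these passed at 24 h, and of the 17 without such a suffix 5 passed, which were those of PCDHB15, PCDHB2, PCDHB14, PCDHB4 and PCDHB7. How the signal of the 7 divides between the genes is uncertain.

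PCDHB15 (231789_at) read 147.4, 135.5 and 142.4 in DMSO and 80.8, 85.52 and 78.01 in entinostat at 24 h. At 48 h the arrays gave 118.5, 145.7 and 144.5 in DMSO and 64.53, 78.85 and 73.95 in entinostat. The entinostat arrays lay below all DMSO arrays, with log2 fold changes of -0.80 (standard error 0.09, adjusted p = 2.86e-05) and -0.91 (standard error 0.09, adjusted p = 8.6e-06). PCDHB2 (231725_at) gave 96.3, 105.0 and 96.43 in DMSO and 72.56, 73.08 and 74.4 in entinostat at 24 h, and 106.6, 112.3 and 108.5 against 74.98, 72.62 and 78.2 at 48 h. Its fall was smaller, with -0.43 (standard error 0.05, adjusted p = 5.05e-05) and -0.54 (standard error 0.05, adjusted p = 7.73e-06), and its replicates lay closer together.

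PCDHB3 had 3 probe sets that disagreed. The pair ending in _x_at fell, 221410_x_at by 0.63 and 0.55 and 244183_x_at by 0.91 and 0.81, and 231394_at had 0.05 and 0.08. On the arrays, 221410_x_at read 162.5, 160.3 and 178.9 in DMSO and 127.2, 90.61 and 110.0 in entinostat at 24 h, and 157.4, 169.2 and 170.8 against 123.3, 89.44 and 132.6 at 48 h. PCDHB12 (221408_x_at) read 99.51, 118.6 and 106.0 in DMSO and 65.26, 72.54 and 66.9 in entinostat at 24 h, and 98.68, 99.73 and 99.96 against 89.08, 66.28 and 70.2 at 48 h. It was lower without overlap at both times, with log2 fold changes of -0.66 and -0.42. The pseudogene PCDHB18P (234724_x_at) read 129.8, 120.3 and 116.6 in DMSO and 91.38, 75.78 and 99.38 in entinostat at 24 h, and 128.1, 134.7 and 126.3 against 75.34, 86.56 and 109.7 at 48 h. With no overlap, it fell by 0.47 (adjusted p = 0.0141) and 0.54 (adjusted p = 0.00594), and its call at 24 h was lost without DMSO replicate 1 or without entinostat replicate 2 of that time. Among the remaining beta genes, PCDHB14 fell by 0.47 and 0.40, PCDHB6 by 0.29 and 0.39 and PCDHB7 by 0.20 and 0.24, each past the threshold at both times. PCDHB4, PCDHB11 and PCDHB13 passed at 24 h only, with -0.46, -0.37 and -0.48. The second probe sets of PCDHB4, PCDHB6, PCDHB13 and PCDHB18P did not pass and had -0.05, 0.05, -0.06 and -0.07 at 24 h and -0.03, 0.06, -0.02 and -0.11 at 48 h. PCDHB16 had -0.46 and -0.51, not past the threshold at either time, and passed in the additive model with -0.49 (adjusted p = 0.00883). No beta probe set passed the interaction of treatment and time (0 at an unadjusted p under 0.05 as well).

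**Figure D4:**
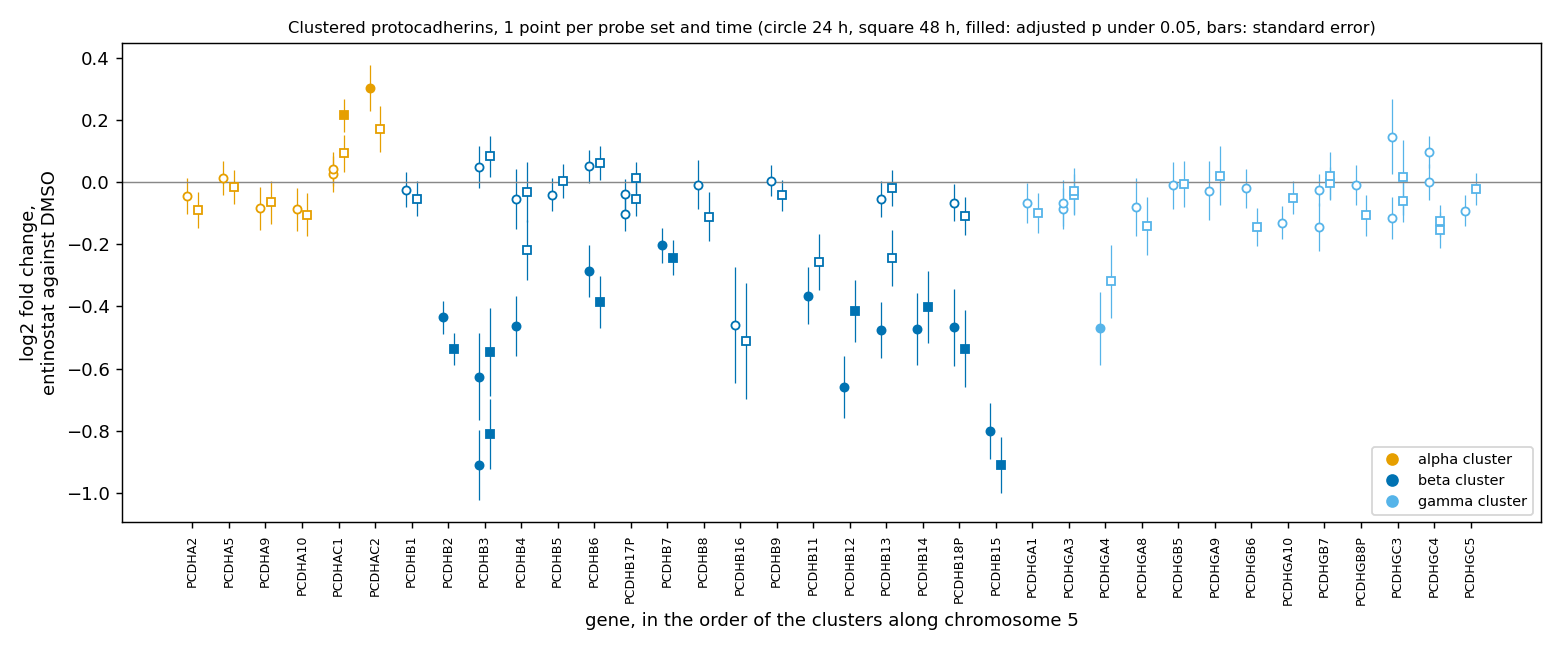
Log2 fold change of entinostat against DMSO (y axis) for single-symbol probe sets of 36 clustered protocadherin genes in their order along chromosome 5 (x axis, not to scale), at 24 h (circles) and 48 h (squares), with standard errors as bars and filled symbols for a limma adjusted p under 0.05. Filled symbols below 0 are spread over the beta cluster from PCDHB2 to PCDHB15, and PCDHGA4 is the only filled one of the gamma cluster.

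The beta genes share letters in their promoters, and those of the 8 genes with a RefSeq promoter and a probe set that passed at 24 h or 48 h are shown to set this beside their common direction. The letters GTGGCGCT were found, on either strand, in 13 of 14 beta promoters (92.9%), from 1 to 83 bases before the start with a median of 65, and in 1.15% of all 35116 promoters of the same 300 bases. They were chosen after looking at these promoters, as 1 of 2 runs of 8 letters tied for the highest count. The tie was settled by the lower count over all promoters, so the 1.15% is not an independent comparison. The promoters of the alpha cluster (0 of 13), the gamma cluster (0 of 17) and members outside the clusters (0 of 33) did not hold them. Each line gives 40 bases, 5′ to 3′, with GTGGCGCT in capitals.
PCDHB2 (GRCh38.p14, chr5:141094540-141094579, + strand): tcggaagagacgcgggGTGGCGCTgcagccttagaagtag
PCDHB3 (GRCh38.p14, chr5:141100389-141100428, + strand): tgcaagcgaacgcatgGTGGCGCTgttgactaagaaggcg
PCDHB4 (GRCh38.p14, chr5:141121719-141121758, + strand): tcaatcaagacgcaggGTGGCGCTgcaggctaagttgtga
PCDHB7 (GRCh38.p14, chr5:141172562-141172601, + strand): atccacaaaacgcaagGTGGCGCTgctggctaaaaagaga
PCDHB12 (GRCh38.p14, chr5:141208639-141208678, + strand): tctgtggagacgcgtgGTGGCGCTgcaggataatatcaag
PCDHB13 (GRCh38.p14, chr5:141213861-141213900, + strand): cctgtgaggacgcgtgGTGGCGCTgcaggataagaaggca
PCDHB14 (GRCh38.p14, chr5:141223259-141223298, + strand): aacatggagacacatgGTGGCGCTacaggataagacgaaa
PCDHB15 (GRCh38.p14, chr5:141245310-141245349, + strand): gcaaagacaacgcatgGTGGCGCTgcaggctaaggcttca

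A match of letters is a description and says nothing of a factor's binding. PCDHB1 was the beta promoter without these letters, and its probe set had -0.02 and -0.05 and did not pass. PCDHB5, PCDHB8 and PCDHB9 hold the letters and had no passing probe set either, and PCDHB16 holds them and passed in the additive model only, so the letters did not separate the genes that fell from those that did not pass. GGGCGG was found in 0 of 14 beta promoters, 6 of 12 promoters of delta protocadherins (50%) and 45% of all promoters. CCAAT was found in 35.7% of beta promoters, in 50% of delta promoters and in 34.6% of all. TATAAA was in 1 of 14 beta promoters, 4 of 12 delta promoters and 11.5% of all, CAGGTG in 1 of 14, 1 of 12 and 20.6%, and CACGTG in 0 of 14, 0 of 12 and 7.26%. The median GC content was 40.8% for beta promoters, 37.3% for alpha, 44.3% for gamma and 57.5% for delta promoters, beside 58.7% for all promoters.

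In the neighboring alpha cluster 3 of 13 probe sets rose and 0 fell at 24 h (4 and 0 at an unadjusted p under 0.05 in limma), where 12.8% of all probe sets rose. At 48 h 3 rose and 0 fell (5 and 1), where 12.9% of all rose, and in the additive model 5 rose and 0 fell (5 and 0), where 15.7% of all rose. The largest values were on probe sets that carry the symbols of many alpha genes at a time, though not on every such probe set. Of these, 210674_s_at read 159.0, 252.7 and 188.1 in DMSO and 418.8, 302.2 and 330.7 in entinostat at 24 h, and 199.1, 159.3 and 239.8 against 283.6, 412.7 and 406.6 at 48 h. The arrays were scattered within each group but did not overlap between treatments, and the log2 fold changes were 0.82 (standard error 0.20, adjusted p = 0.00901) and 0.88 (standard error 0.20, adjusted p = 0.00558). A second such probe set, 223435_s_at, had 0.58 (adjusted p = 0.0445) and 0.54 (adjusted p = 0.0576). Of the alpha genes with a probe set of their own, PCDHAC2 rose at 24 h by 0.30 and PCDHAC1 at 48 h by 0.21 on 1 of 2 probe sets (0.09 on the other), and PCDHA2, PCDHA5, PCDHA9 and PCDHA10 did not pass. Those that rose, 224539_s_at of PCDHAC2 and 1553237_x_at of PCDHAC1, have suffixes of probe sets that may bind more than 1 transcript. In the gamma cluster 1 of 20 probe sets fell and 0 rose at 24 h (3 and 0 at an unadjusted p under 0.05), and 0 passed at 48 h (5 lower and 0 higher at an unadjusted p under 0.05). Of all probe sets, 12.4% fell at 24 h and 13.2% at 48 h. The probe set that fell was that of PCDHGA4, with means of 92.64 ± 13.6 in DMSO and 66.51 ± 4.79 in entinostat (SD, n = 3) and a log2 fold change of -0.47 (adjusted p = 0.00985).

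Genes of other families in and around the clusters moved in both directions. Inside them, the mitochondrial carrier SLC25A2 fell at 24 h with -0.25 (adjusted p = 0.0382) and had -0.04 at 48 h, and TAF7, a subunit of the general transcription factor TFIID, had 0.03 and -0.08. At the ends, HARS2 had -0.25 and -0.18, ZMAT2 -0.38 and -0.02, the formin DIAPH1 0.84 and 1.04, and the deacetylase HDAC3 0.63 and 0.53. Of 10 genes known for promoter choice in the clusters, 2 rose and 3 fell at 24 h (18.2% and 15% of all genes), and 1 rose and 4 fell at 48 h (17.3% and 16.6%). The DNA methyltransferase DNMT3B rose by 0.94 and 0.39, the cohesin subunits STAG1, STAG2 and SMC1A fell by 0.63, 0.53 and 0.31 at 24 h and by 0.58, 0.35 and 0.54 at 48 h, and CTCF had -0.26 and -0.30, which did not pass at either time, and -0.28 in the additive model, which did (adjusted p = 0.015).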

How the data were processed

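HD-MB03 cells were treated in 3 biological replicates per group. The values as deposited are linear intensities. The authors name GCRMA (version not given in the sources used here) and a log2 transformation, but these values are not logged and keep a background level (lowest value 36.66), so whether they went through those steps is not known. Their log2 was taken here, and precision is limited by the number of arrays. Of 54675 probe sets, 62 controls were left out, and 54613 were fitted with limma 3.58.1 in R 4.3.3 over all 12 arrays with 1 coefficient per group, with an additive model for both times. Values were missing in 2 cells of the whole table. P-values were adjusted by Benjamini-Hochberg across every probe set tested and called under 0.05, and the procedure was tested on simulated data. Genes were named from GEO's platform annotation, and each was read from its single-symbol probe set of the highest mean over all arrays. Promoter sequences are from RefSeq (GRCh38.p14), which held a promoter for 63 of 83 annotated member genes. CDH4, CDH13 and PCDH20 were not analysed here.

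Members and lists were chosen with earlier results of these data known. Values per array are given for single-symbol probe sets that passed at 24 h or 48 h with a log2 fold change of at least 0.5 in size (1 per gene), and CDH1, CDH2 and the 5 members of the highest intensity in DMSO are named whatever their change. Other named members, probe sets and neighboring genes were chosen after their values were seen. Replicates with the same number were not taken as pairs, since the correlation of their deviations from the group means ran from -0.061 to 0.202. The same number was still the best of 3 partners in 12 of 18 pairs, and counts with a replicate block are given below. The alternatives tried were quantile normalization, median centring, a minimum mean log2, 30 subtracted from every value, a trended robust prior, a fit of each time alone, a replicate block, a minimum fold change, and omission of each array. Leaving out probe sets of shared or several transcripts was chosen after seeing the data.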

Additional observations from a re-analysis of the deposited data

Results flagged for a closer look

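The effect of entinostat on the PCDH8 probe set and on 1 of 5 PCDH7 probe sets (205534_at) differed between 24 h and 48 h by the test of the interaction of treatment and time. For PCDH8 the log2 effect at 48 h minus that at 24 h was -1.0226 (adjusted p = 0.00514 from limma), with entinostat arrays above DMSO in 3 of 3 at 24 h and overlapping at 48 h. For PCDH7 it was -0.4852 (adjusted p = 0.0301), with all entinostat arrays above DMSO at both times. Under the subtraction of 30 from every value, PCDH7 had -0.85 (adjusted p = 0.0804).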

How the results depend on the processing

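The depth of array data is its signal over background, and 94 of 134 member probe sets were below the median of all. With the replicate block, the counts of member probe sets past the threshold were 33 at 24 h, 38 at 48 h, 48 in the additive model and 3 for the interaction, and the block ended no call of the named probe sets or of the interactions of PCDH7 and PCDH8. Own-numbered replicates correlated best in 12 of 18 pairs. A filter at a mean log2 of at least 7, which left 11 members, gave 8 at 24 h, 11 at 48 h, 10 in the additive model and 0 for the interaction. Requiring a log2 fold change of at least 0.5 gave 20, 19, 19 and 1. Without probe sets ending in _x_at, _s_at or _a_at or of several symbols, 18 of 78 passed at 24 h, 19 at 48 h and 24 in the additive model. Of all 134, 24.6%, 25.4% and 36.6% had passed. The filter on endings and several symbols removed calls as well as tests, among them the 7 beta probe sets with such an ending, which all passed at 24 h. The shares of all probe sets that passed under these filters are not given here. The filtered counts therefore do not compare the members with other probe sets. The interaction gave 1 with 30 subtracted, 1 to 3 when 1 array was left out, and 2 genes instead of 1 when each gene was read from its strongest probe set. In the beta cluster 10 to 13 probe sets fell at 24 h and 8 to 11 at 48 h under the alternatives run on it (scaling, prior, block and omission of each array), and 0 rose. Of 660 alternative values for the 36 values of the named probe sets, 655 kept their side of the threshold, 5 lost the call, and no called value reversed its direction. Direction was scored only for values past the threshold. Some values that had not passed did change sign when 1 array was omitted, such as CDH1 at 24 h (-0.056 to 0.074) and PCDH8 at 48 h (-0.124 to 0.028). The 5 lost calls were PCDHB18P at 24 h (without DMSO replicate 1 or entinostat replicate 2 of that time) and PCDH7 at 48 h (without DMSO replicate 1 or entinostat replicate 2 of that time, and with the groups of that time alone, adjusted p = 0.0584). The cause of these changes was not tested.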

Other observations

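Other relatives of the cadherins moved in both directions. Of 11 desmosomal genes, 3 rose and 1 fell over both times: plakophilin 2 (PKP2) had 1.17 at 24 h and 0.94 at 48 h on the log2 scale, desmoplakin (DSP) 0.51 and 0.50, and desmocollin 2 (DSC2) 0.44 and 0.24, while desmoglein 2 (DSG2), a desmosomal cadherin, fell by 1.03 and 1.09. DSG2 went from a mean intensity of 1195 to 585.7 at 24 h. Among 17 other genes of the superfamily 4 rose and 2 fell, with FAT1, a giant atypical cadherin, at 1.35 and 1.23, the calsyntenin CLSTN3 at 1.02 and 0.81, FAT4 at 0.45 and 0.53, and CELSR3, a cadherin of planar polarity, at -0.31 and -0.42. Of 8 genes for shedding and cleavage of cadherins 2 rose and 3 fell. Subunits of gamma-secretase were among both, with APH1B at 1.16 and 1.11, NCSTN at -0.57 and -0.41 and PSENEN at -0.42 and -0.21. Over all genes, 21% passed higher and 19.7% lower over both times.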
